A study of Mus musculus with 28 samples.

Results

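CD4 T cells that met their antigen for the whole experiment were compared with CD4 T cells that were stimulated at first and then rested without antigen. Arrays were assigned by their sample titles, 3 to continuous stimulation and 2 to transient stimulation, which makes 5 of the 28 arrays of the series, and all 12393 genes with a single symbol on the array were tested. All donor cells came from C57BL/6N mice that carry the AND T cell receptor transgene, whose receptor sees a peptide on MHC class II, and were taken from spleen and subcutaneous lymph nodes. Both groups first spent 2 days in dishes coated with anti-CD3 and anti-CD28 antibody at 10 µg/ml, in medium with interleukin 7 at 5 ng/ml. The cells then spent 3 days in host mice. Transient cells went into hosts that do not present the antigen, and continuous cells into hosts that do, which the labels name as dtg-O or -M hosts without saying which host an array came from. A further CD4 group of 2 arrays, called unstimulated, had interleukin 7 without antibody and then rested in hosts without antigen. On day 5 the cells were sorted by flow cytometry in 2 rounds to over 99% purity, per the series text, and their RNA was amplified before hybridisation to Affymetrix Mouse 430A2 arrays. The replicates are stated to be independent biological ones. The continuous and transient groups differ in the host as well as in antigen, and those cannot be told apart here.

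A CD4 T cell that meets its peptide receives a signal through the receptor complex and its kinases, and a second one through CD28. It leaves quiescence, takes up nutrients, copies its DNA, divides, and switches on cytokines that depend on the kind of helper cell it becomes. When antigen is gone the cell can return to rest, and when antigen persists receptors that restrain it, such as PD-1 and LAG-3, often stay on the surface. The comparison asks which parts of the activated state were present on day 5 with antigen and not after its withdrawal.

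Values are the log2 signals of the array, changes are continuous minus transient in log2 units, and SE is the standard error of a change. The values used hold no detection calls, and the lower quartile of all probe sets was 4.60 to 4.71 on the CD4 day 5 arrays, so signals near or below that level may be background and a change against them is a ratio of signals. The threshold for calling a gene was an adjusted p of 0.05, from limma fitted to the 16 day 5 arrays with Benjamini-Hochberg adjustment over all genes. By that rule 4224 genes differed, 34.1% of those tested. Of these, 2182 were higher (17.6%) and 2042 lower (16.5%) in continuous cells, and 5328 genes had an unadjusted p below 0.05. Counts of list members below stand against those 2 shares. The median gene had a change of -0.06 and an SE of 0.166. An exact permutation test of 3 against 2 arrays cannot give a p below 0.1, so the calls rest on the spread shared by all day 5 groups. Arrays of a group were close to each other, with a median absolute difference between genes of 0.196 for the 2 transient arrays and of 0.153 to 0.18 for pairs of continuous arrays.

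The 2 transient arrays stood apart from the other CD4 day 5 arrays in measures that do not belong to T cell activation. The mean signal of 20 B cell markers was 9.18 and 7.95 on the transient arrays, 6.09, 5.24 and 5.26 on the continuous arrays, and 6.38 and 5.56 on the unstimulated CD4 arrays. On the unstimulated CD8 arrays of day 5 it was 8.11, 5.69 and 6.44, the first of these being above transient CD4 array 2. Ms4a1, which encodes the B cell surface protein CD20, was at 5.13, 5.03 and 5.13 on the continuous arrays, 12.85 and 11.13 on the transient arrays, and 7.33 and 5.30 on the unstimulated arrays. It was lower in continuous cells by 6.89 (SE 1.26, adjusted p = 0.000799), with a wide gap between the groups. Of the 20 B cell markers 16 were called lower and none higher, with a median of -2.76, and the count fell to 8 without transient array 1. Other B cell genes among the largest falls were Ly6d (-6.24, SE 1.05), Cd79b, a chain of the B cell receptor complex (-5.71, SE 0.58), Ly86 (-5.41, SE 1.35), the Fc receptor-like gene Fcrla (-4.75, SE 0.43) and the antibody heavy chain gene Ighg3 (-3.86, SE 0.45). Without transient array 1, Ly86 was at -4.96 and not called (adjusted p = 0.056). Under a B cell covariate described below, the calls of Ms4a1 (-1.17, adjusted p = 0.33), Ly6d (-1.78, adjusted p = 0.196) and Ly86 (0.62, adjusted p = 0.697) were lost. Ms4a1 and Ly86 are among the 20 markers whose mean is that covariate, so a smaller change of theirs was built into the fit. Scd1, a fatty acid desaturase, followed the same pattern across arrays, at 5.21, 5.10 and 4.96 in continuous cells, 11.14 and 9.07 in transient cells, and 5.46 and 5.04 in unstimulated cells. Of 12 myeloid markers none was called (median -1.60), and their mean signal was 7.30 and 9.80 on the transient arrays against 8.43, 6.10 and 6.22 on the continuous arrays, so these groups overlapped. Slpi, a protease inhibitor common in myeloid cells, was lower in continuous cells (-3.91, SE 0.74, adjusted p = 0.00106), a call lost under that covariate (-1.64, adjusted p = 0.3). Jchain, the joining chain of secreted antibody and a plasma cell marker, was at 8.73, 4.44 and 4.58 on the continuous, 12.34 and 13.79 on the transient and 8.34 and 4.07 on the unstimulated arrays (-7.14, adjusted p = 0.0766). It was not called, and both transient arrays were above every other CD4 array. Igha, the heavy chain gene of immunoglobulin A, was at 6.89, 7.00 and 7.20, then 12.21 and 14.25, then 10.49 and 6.87 (-6.20, SE 2.25, adjusted p = 0.0474). Its call was lost without any 1 of the 5 arrays (-7.22 to -5.18, adjusted p up to 0.223) and under the B cell covariate (1.90, adjusted p = 0.674). Because these are bulk samples, fewer cells of a type and less RNA per cell cannot be told apart.

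The control probes for transcript length differed in the same way. The 3' minus 5' difference of the beta-actin probe sets, which grows when RNA or its amplified copy is short, was 2.73 and 2.42 on the transient arrays, 0.40, 0.62 and 0.40 on the continuous arrays, and 0.67 and 0.98 on the unstimulated CD4 arrays. For Gapdh the same difference was 3.60 and 3.47 on the transient arrays against 1.66, 1.56 and 1.44 on the continuous arrays. On neither control did the 2 groups compared overlap. Of the other day 5 groups, the CD8 unstimulated arrays had beta-actin differences of 1.92 to 2.44. When the B cell marker mean of each array was added to the fit as a covariate, 1847 of the 12393 genes were called, 968 higher and 879 lower. The median SE rose to 0.269, and 99.3% of the 4224 genes kept the sign of their change. When the beta-actin difference was added instead, 2 genes were called, Btf3l4 (4.15) and Cdc26 (3.48), the median SE rose to 0.632, 76.7% of the 4224 genes kept their sign, and 1148 genes had an unadjusted p below 0.05. With that covariate no member of any functional gene list below was called. Its slope rests on the small spread within groups, while the transient and continuous arrays lie far apart on it. That fit can therefore hardly separate transcript length from the comparison, and a call lost there does not tell the cause. The B cell mean does not overlap between the 2 groups compared either, and its slope also rests on the spread within groups. A call lost or kept under the B cell covariate therefore does not tell the cause either. The part of short transcripts and of B cell RNA in each result was not tested beyond these fits, whose counts are given beside the lists.

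**Figure D1:**
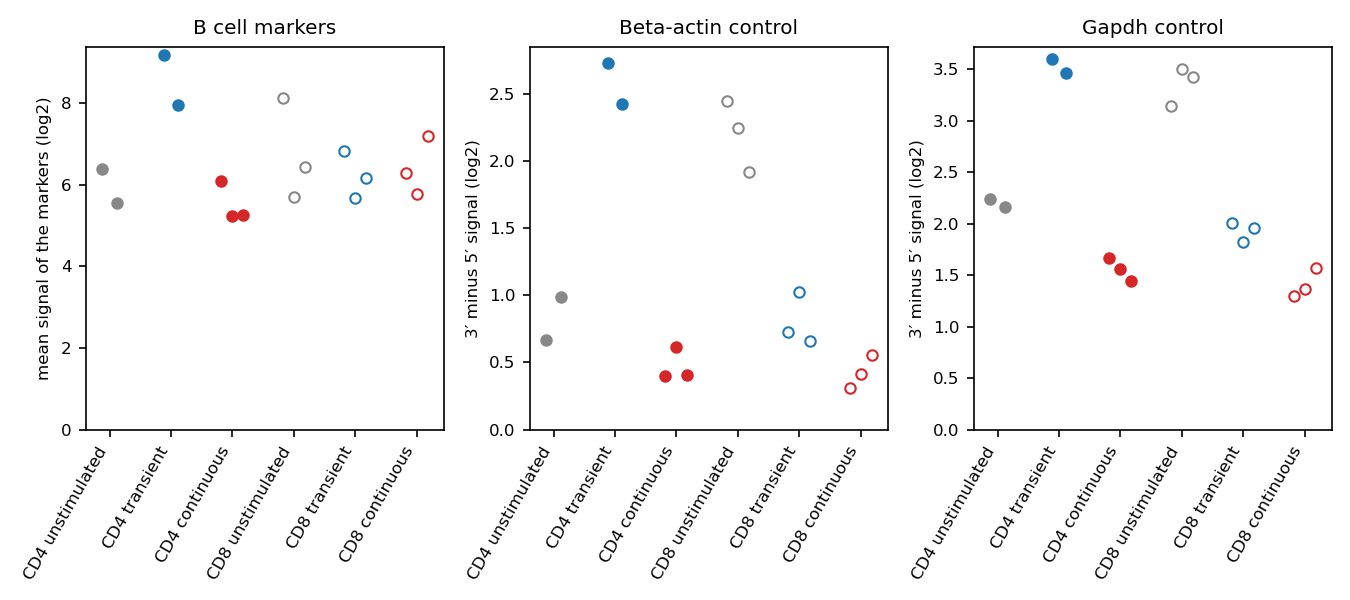
Mean log2 signal of the B cell markers and 3' minus 5' log2 difference of the beta-actin and Gapdh control probe sets on each day 5 array, with CD4 arrays as filled and CD8 arrays as open points, unstimulated in grey, transient in blue and continuous in red. The 2 CD4 transient arrays lie above the CD4 continuous arrays on all 3 measures, at 2.73 and 2.42 against 0.40 to 0.62 for beta-actin.

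T cell markers were high in both groups, and Cd4 itself differed in level. Cd4, the helper coreceptor, stood at 9.48, 9.63 and 9.86 on the continuous arrays, 7.68 and 7.88 on the transient arrays, and 9.60 and 9.22 on the unstimulated arrays. It was 3.68-fold higher in continuous than in transient cells (1.88, SE 0.17, adjusted p = 4.01e-06), and the transient arrays were the low ones. Cd3e, a signalling chain of the receptor complex, rose by 0.76 (SE 0.17, adjusted p = 0.00312), while Cd3d had a change of -0.47 (adjusted p = 0.187). Of 7 pan T cell markers 4 were higher and none lower (median 0.60, and 2 higher under the B cell covariate, where Cd3e at 0.89 was not called, adjusted p = 0.0537), and of 3 CD4 helper markers 2 were higher. Cd8a, the coreceptor of cytotoxic cells, was low in both groups, at 5.34 to 5.92 and 6.16 to 6.22, and fell by 0.59 (adjusted p = 0.013). That call was lost without continuous array 3 (-0.46, adjusted p = 0.053) or transient array 1 (-0.56, adjusted p = 0.0762). Foxp3, which defines regulatory T cells, lay between 4.70 and 5.30 on all 5 arrays, and of 8 regulatory T cell markers 1 was higher and 1 lower. Of the remaining marker lists, 2 of 6 for dendritic cells, 1 of 2 for gamma delta T cells, 1 of 3 for CD8 cells and 1 of 8 for stroma were lower. The gamma delta marker called was Blk (-1.81), which is also in the B cell list, while Sox13 (-0.13) was not called. None of 5 for plasma cells and none of 4 for red cells was called, and the single NK marker called higher was Nkg7.

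Genes of mitosis and DNA replication were the functional lists with the largest share of members higher in continuous cells. Of 37 measured genes of mitosis and chromosome segregation 36 were higher and 1 lower, with a median of 2.95 against -0.06 for all genes, and 36 had every continuous array above both transient arrays, as 25.3% of all genes did. Aurka, a kinase of the spindle poles, was at 10.69, 9.66 and 10.68 on the continuous arrays and at 6.04 and 6.17 on the transient arrays, close to the 6.26 and 5.99 of unstimulated cells. It was 18.9-fold higher (4.24, SE 0.47, adjusted p = 1.83e-05), with no overlap. Plk1, the kinase that drives entry into mitosis, was at 11.72, 10.72 and 11.80 against 7.26 and 7.23 (4.17, SE 0.49). Ccna2, the cyclin of S phase and early mitosis, rose 22.7-fold (4.50, SE 0.56), and Birc5, a member of the chromosomal passenger complex, 16.4-fold (4.03, SE 0.56). Stil and Spag5, needed for centriole duplication and for the spindle, rose by 4.39 and 3.91. Cdc25b, a phosphatase that activates the mitotic kinase, rose by 3.81 (SE 0.40). Mki67, the gene of the proliferation marker Ki-67, was at 11.91, 11.68 and 12.49 in continuous cells, 9.01 and 9.15 in transient cells, and 8.02 and 6.80 in unstimulated cells (2.95, SE 0.55, adjusted p = 0.000961), so that transient cells lay between the others.

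Smc4, a condensin subunit, was the 1 mitosis gene called lower (-0.74, adjusted p = 0.0274), and its other probe sets did not follow, one of them being called higher by 0.90 (adjusted p = 0.0408). The call for Smc4 was lost without continuous array 2 (-0.66, adjusted p = 0.0806), transient array 1 (-0.65, adjusted p = 0.154) or transient array 2 (-0.84, adjusted p = 0.0627). Under the B cell covariate 35 mitosis genes were called higher and none lower (Smc4 at -0.20, adjusted p = 0.763), with a median of 4.04, and with the beta-actin covariate the median was 1.99 and none was called.

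Of 31 genes of DNA replication and nucleotide supply 30 were higher and none lower, with a median of 1.68. Gins1, a subunit of the replicative helicase, was at 10.61, 10.27 and 10.78 on the continuous arrays and 6.47 and 6.59 on the transient arrays, below the 8.20 and 7.64 of unstimulated cells (4.02, SE 0.42, adjusted p = 1.07e-05). Cdc6, which loads the helicase at origins, rose 14.4-fold (3.85, SE 0.57) and Mcm5, a helicase ring subunit, 10.9-fold (3.45, SE 0.34). Tk1 and Dut, enzymes of the thymidine nucleotide supply, rose by 3.35 (SE 0.58) and 3.26 (SE 0.26). Like Gins1, Mcm5 and Dut were lower on both transient arrays than on both unstimulated arrays, Mcm5 at 7.24 and 7.96 against 8.72 and 8.31. Lrr1, which takes part in dismantling the replication helicase, was outside the list and among the largest rises (4.84, SE 0.48). In the fit with the B cell covariate 24 of the 31 were called higher (median 1.90), and the beta-actin covariate gave a median of 1.09 with none called. Set against unstimulated CD4 cells, which share these arrays, continuous cells had medians of 3.97 for mitosis and 1.76 for replication, and transient cells of 1.24 and 0.09.

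**Figure D2:**
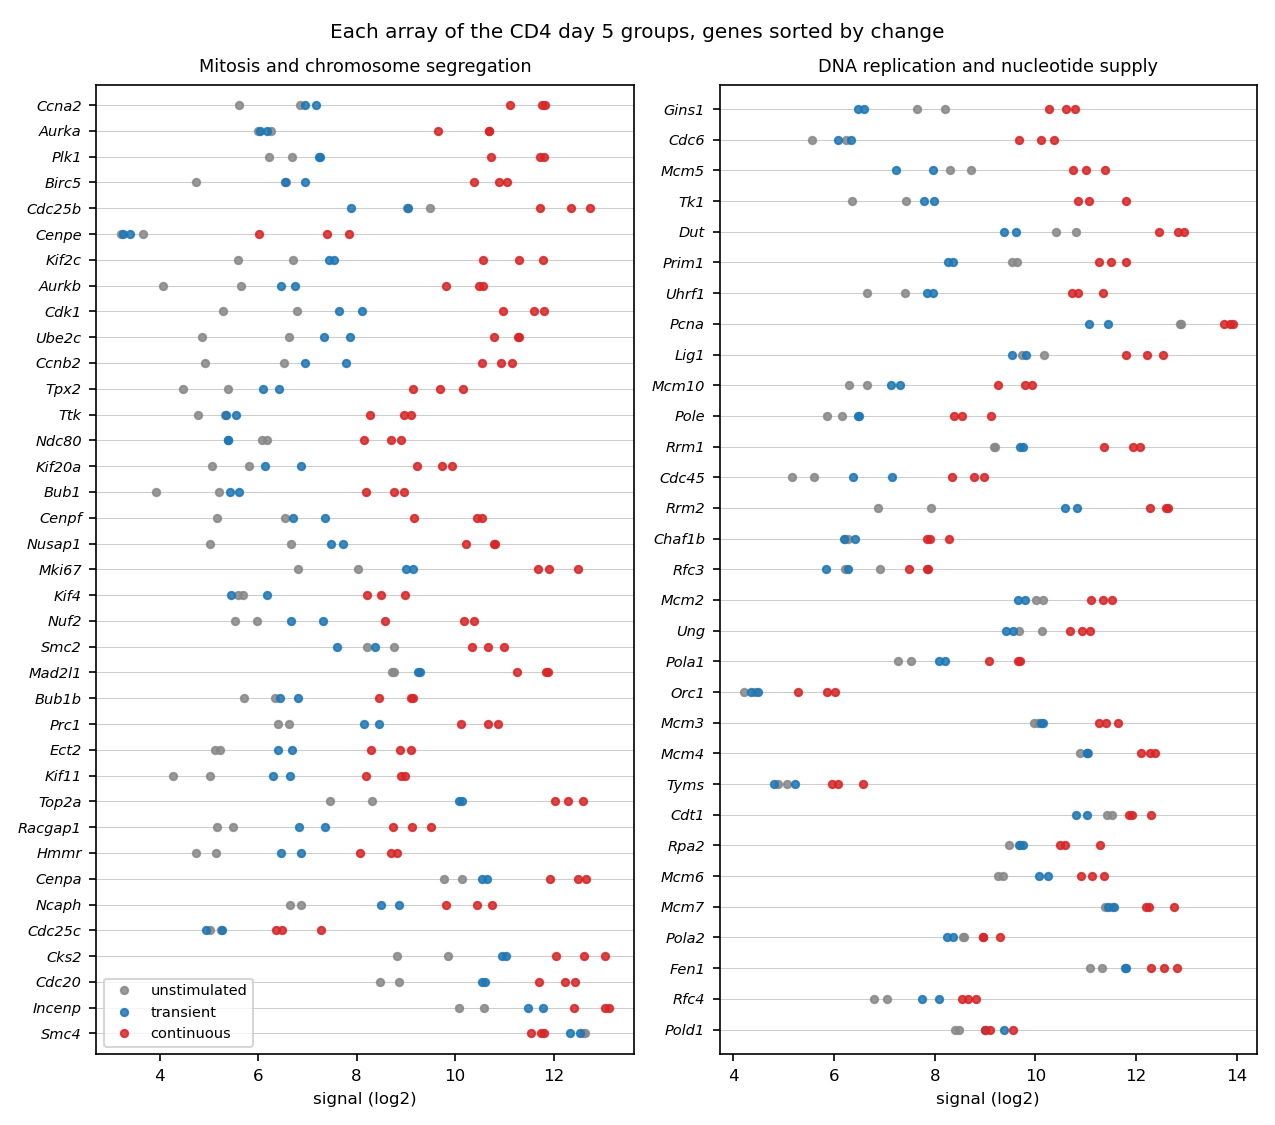
Log2 signal of the 37 mitosis genes and 31 DNA replication genes on each CD4 day 5 array, with genes sorted by their continuous minus transient change. The mean over the mitosis genes was 10.53, 9.85 and 10.64 on the continuous arrays, 7.59 and 7.58 on the transient arrays and 6.90 and 6.22 on the unstimulated arrays, so that the transient arrays lie between the others.

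Promoter sequences of 3 of these genes and of Cdk1 are shown, with matches to short elements known from cell cycle promoters marked. Cdk1, the mitotic kinase itself, is in the mitosis list and was chosen after its values were seen (11.81, 10.98 and 11.61 against 7.64 and 8.11, a change of 3.59, adjusted p = 0.000914 by limma with Benjamini-Hochberg adjustment). The sequences are the 250 bases before the gene start in RefSeq on GRCm38.p6, written 5′ to 3′ on the gene's strand. Capitals mark matches, on either strand, to CCAAT (the box bound by NF-Y), to TTTGAA or TTCGAA (the cell cycle homology region, CHR), and to the E2F site letters TTTCGCGC, TTTGGCGC, TTTCCCGC, TTTGCCGC, TTTCGCGG and TTTGGCGG. The windows are chr2:172370571-172370820 (minus strand) for Aurka, chr7:122159185-122159434 (plus strand) for Plk1, chr10:69352913-69353162 (minus strand) for Cdk1 and chr8:75109259-75109508 (plus strand) for Mcm5.
Aurka: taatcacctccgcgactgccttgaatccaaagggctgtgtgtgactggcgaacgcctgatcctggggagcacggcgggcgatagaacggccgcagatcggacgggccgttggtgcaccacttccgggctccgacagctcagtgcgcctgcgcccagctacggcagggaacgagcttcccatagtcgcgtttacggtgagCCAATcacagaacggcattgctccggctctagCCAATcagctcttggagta
Plk1: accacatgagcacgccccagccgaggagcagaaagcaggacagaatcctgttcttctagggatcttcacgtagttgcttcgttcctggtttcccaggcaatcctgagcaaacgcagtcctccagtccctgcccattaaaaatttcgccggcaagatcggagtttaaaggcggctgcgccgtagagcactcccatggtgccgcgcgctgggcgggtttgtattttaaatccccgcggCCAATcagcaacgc
Cdk1: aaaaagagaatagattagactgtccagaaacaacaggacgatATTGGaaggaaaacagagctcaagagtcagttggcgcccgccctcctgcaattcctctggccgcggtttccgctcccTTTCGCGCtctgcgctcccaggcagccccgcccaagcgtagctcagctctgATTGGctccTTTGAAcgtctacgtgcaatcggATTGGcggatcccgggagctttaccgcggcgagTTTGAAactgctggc
Mcm5: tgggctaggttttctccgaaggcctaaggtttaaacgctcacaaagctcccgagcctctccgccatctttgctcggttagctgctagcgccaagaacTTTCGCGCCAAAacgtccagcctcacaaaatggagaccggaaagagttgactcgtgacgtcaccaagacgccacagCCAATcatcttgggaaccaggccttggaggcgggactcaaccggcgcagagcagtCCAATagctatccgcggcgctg
Aurka held 2 CCAAT boxes and Plk1 held 1. Cdk1 held 2 CHR matches, 3 CCAAT boxes and 1 E2F match, and Mcm5 held 2 CCAAT boxes and 2 E2F matches that overlap. Over the 9887 array genes with a promoter in the table, 35.9% had a CCAAT box in this window, 13.1% a CHR match, 3.95% an E2F match, and 4.79% both CHR and CCAAT. Of the mitosis genes 30 were in the table, and 76.7% of them had a CCAAT box, 36.7% a CHR match, 3.33% an E2F match, and 33.3% both CHR and CCAAT. Of the replication genes 28 were in the table, with 57.1%, 17.9%, 25% and 14.3% in the same order. These letter matches describe the sequences and are no evidence of binding.

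Cell cycle inhibitors rose beside the genes of division. Of 19 G1 and cell cycle brake genes 13 were higher and 1 lower (median 1.17, and 8 higher with none lower under the B cell covariate). E2f8, a repressor of late cell cycle genes, rose by 3.13 (SE 0.44) and Ccne2, a cyclin of S phase entry, by 2.14 (SE 0.35). Cdkn1a, which encodes the inhibitor p21, was at 10.46, 9.88 and 9.05 on the continuous and 6.79 and 7.52 on the transient arrays (2.64, SE 0.36, adjusted p = 8.75e-05). Cdkn2c, the inhibitor p18, was at 12.18, 11.28 and 12.17 against 9.53 and 9.48 (2.37, SE 0.29). Neither inhibitor's groups overlapped. Rbl2, a retinoblastoma family repressor typical of resting cells, was higher in continuous cells (1.62, SE 0.21), but unstimulated cells, at 8.36 and 8.82, were above the transient arrays at 6.31 and 6.60 too.

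Il21 had the largest rise of all called genes whose groups did not overlap. It encodes interleukin 21, the cytokine with which helper cells act on B cells and CD8 cells. It was at 10.66, 10.93 and 9.94 on the continuous arrays, 3.65 and 4.85 on the transient arrays, and 4.06 and 4.08 on the unstimulated arrays. Both other groups were at signals near or below the lower quartile of the arrays, and the change was 6.26 (SE 0.30, adjusted p = 5.25e-08). Ifng, the gene of interferon gamma, was at 12.48, 11.69 and 10.51 in continuous cells, 7.54 and 7.08 in transient cells, and 5.44 and 6.04 in unstimulated cells. It rose 19.0-fold (4.25, SE 0.69, adjusted p = 0.000316), and transient cells were above unstimulated ones on every array. Il10, an anti-inflammatory cytokine, was at 7.70, 6.49 and 5.97 against 3.60 and 3.71 (3.07, SE 0.37, adjusted p = 3.61e-05).

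Chemokines and interleukin 2 moved in different directions. Ccl4, a chemokine of activated T cells, was at 11.51, 10.08 and 9.53 against 7.08 and 7.43 (3.12, SE 0.67, adjusted p = 0.00241). Ccl5, a chemokine of effector T cells, was at 12.41, 11.57 and 12.45 against 9.58 and 10.27 (2.22, SE 0.43), with unstimulated cells lower still at 7.69 and 8.29. Il2, the T cell growth factor, was at 5.37, 5.68 and 5.13 in continuous cells and 7.87 and 6.08 in transient cells. It fell by 1.58 (SE 0.43, adjusted p = 0.0113), a call that rested on transient array 1, without which the change was -0.68 (adjusted p = 0.229). Of 25 measured effector cytokines and chemokines 8 were higher and 2 lower, and their median of 0.04 was close to that of all genes. With the B cell covariate 4 were higher and none lower, and Ifng (3.22, adjusted p = 0.0739), Ccl5 (2.31, adjusted p = 0.0537) and Il2 (-1.04, adjusted p = 0.369) were then not called.

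Granule and killer genes were higher in continuous CD4 cells in 10 of 18 cases and lower in none, with a median of 0.93. Gzmb, the death-inducing protease granzyme B, was at 13.26, 12.71 and 12.31 on the continuous arrays, 6.79 and 7.31 on the transient arrays, and 5.00 and 5.61 on the unstimulated arrays. The rise was 52.4-fold (5.71, SE 0.77, adjusted p = 7.87e-05). Gzmk, granzyme K, was at 11.24, 11.54 and 11.78 against 6.65 and 6.82 (27.5-fold, 4.78, SE 0.52), with transient cells at the unstimulated level of 6.66 and 7.36. Nkg7, a granule membrane protein, was at 13.21, 13.02 and 12.96 against 9.79 and 9.83 (3.25, SE 0.15, adjusted p = 5.25e-08), and its arrays agreed closely within each group. Ctsw, a protease of killer cells, rose by 1.95 (SE 0.21). Gzma, granzyme A, was at 11.50, 11.07 and 10.57 against 6.49 and 8.41 (3.60, SE 1.26, adjusted p = 0.0399). Its call was lost without continuous array 1 (3.38, adjusted p = 0.0959), 2 (3.59, adjusted p = 0.0764) or 3 (3.84, adjusted p = 0.0593), or without transient array 1 (2.64, adjusted p = 0.262). Fasl, the ligand of the death receptor Fas, overlapped between the groups (-0.40, adjusted p = 0.626), while another of its probe sets was called higher (0.74, adjusted p = 0.0477). With the B cell covariate 7 of the 18 granule genes were higher and none lower, and Gzma was not called (1.03, adjusted p = 0.773).

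Of 21 activation and effector factors 4 were higher and 1 lower (median 0.34), where 17.6% and 16.5% of all genes were. Tbx21 rose the most. This gene, which encodes the T helper 1 factor T-bet, was at 11.80, 11.53 and 11.41 on the continuous arrays, 8.48 and 8.88 on the transient arrays, and 6.63 and 6.19 on the unstimulated arrays. It rose 7.44-fold (2.90, SE 0.40, adjusted p = 8.81e-05), and the 3 groups followed one another without overlap. Batf, an AP-1 family factor, rose by 1.35 (SE 0.21), Maf, a factor of Il10 and Il21 expression, by 0.77 (SE 0.15), and Hif1a, the hypoxia factor, by 0.75 (SE 0.16). Irf4, which is induced in proportion to receptor signal strength, was at 11.09, 11.73 and 9.67 against 10.32 and 9.56, so that the groups overlapped (0.89, adjusted p = 0.284). In the B cell covariate fit 1 of the 21 was called higher and none lower, and Batf (1.06, adjusted p = 0.0519), Maf (0.65, adjusted p = 0.109) and Hif1a (0.47, adjusted p = 0.26) were not called.

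**Figure D3:**
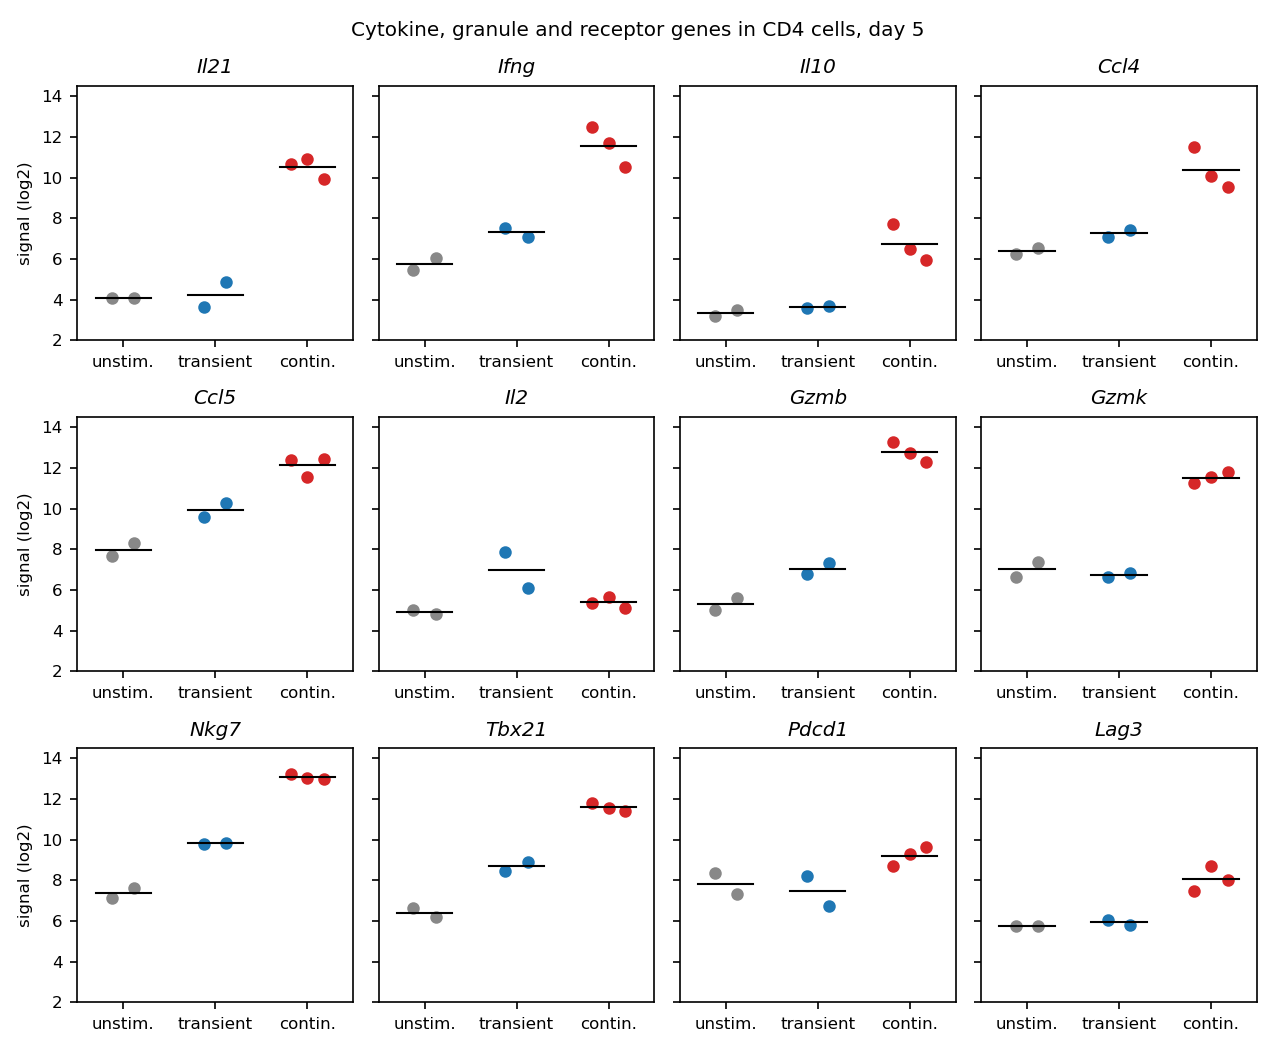
Log2 signal of 12 effector, killer and inhibitory genes on each CD4 day 5 array (continuous red, transient blue, unstimulated grey), with a line at each group's mean. All 3 continuous arrays lie above both transient arrays for every gene drawn except Il2, whose transient arrays at 7.87 and 6.08 lie above the continuous ones.

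Of 13 inhibitory receptors and ligands 6 were higher and 1 lower with continuous antigen (median 0.99). Lag3, an inhibitory receptor for MHC class II, was at 7.48, 8.71 and 8.00 against 6.07 and 5.81 (2.12, SE 0.32, adjusted p = 0.000189). Cd200, the ligand of an inhibitory receptor on myeloid cells, was at 10.29, 9.71 and 9.34 against 7.74 and 7.09 (2.37, SE 0.31). Cd160, an inhibitory receptor, rose by 1.71 (SE 0.38, adjusted p = 0.0029), and in these 3 genes no arrays overlapped. Pdcd1, the gene of PD-1, was at 8.72, 9.29 and 9.62 in continuous cells, 8.22 and 6.75 in transient cells, and 8.34 and 7.33 in unstimulated cells (1.73, SE 0.46, adjusted p = 0.0101). The 2 transient arrays of Pdcd1 differed by more than a log2 unit, and without transient array 2 the change was 0.99 (adjusted p = 0.174). Ctla4 was far above the unstimulated 8.04 and 7.88 in both groups, at 12.54, 12.06 and 11.49 with continuous and 11.58 and 11.23 with transient antigen (0.62, adjusted p = 0.194). Cd274, which encodes the ligand PD-L1, fell by 1.45 (SE 0.33, adjusted p = 0.00355). Under the B cell covariate 3 of the 13 were higher and none lower, and Pdcd1 (1.51, adjusted p = 0.227) and Cd274 (adjusted p = 0.244) were not called.

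Of 14 follicular helper genes 6 were higher and none lower (median 0.43), among them Il21, Cd200 and Pdcd1 as above. Icos, a costimulatory receptor, was at 10.43, 10.69 and 9.94 against 8.84 and 8.22 (1.82, SE 0.29, adjusted p = 0.000311). Sh2d1a, the adaptor SAP, was at 10.82, 11.23 and 10.97 against 9.60 and 9.32 (1.54, SE 0.16, adjusted p = 1.1e-05). Neither gene's groups overlapped. Bcl6, the defining factor, was at 7.96, 8.75 and 8.65 against 8.72 and 8.17 (0.01, SE 0.45, adjusted p = 0.986). Cxcr5, the receptor that leads cells into follicles, ranged from 6.13 to 9.20 in continuous cells and stood at 9.31 and 6.47 in transient cells (-0.15, adjusted p = 0.919), so that arrays of 1 group differed more than the groups. Adding the B cell covariate left 4 of the 14 called higher.

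Of 16 genes linked to anergy, the unresponsive state after incomplete stimulation, 5 were higher and 2 lower (median 0.13), and without transient array 1 the higher count was 3. Ptpn22, a phosphatase that restrains receptor kinases, rose by 0.90 (SE 0.16), and Sdf2l1, a chaperone of the endoplasmic reticulum that is in the same list, by 2.05 (SE 0.42). Socs3, a brake on interleukin 6 signalling, fell by 1.71 (SE 0.43, adjusted p = 0.00688), from 11.74 and 11.81 in transient cells to between 9.47 and 10.54 in continuous cells. The B cell covariate left 3 of the 16 higher and none lower, with Socs3 at -2.25 and an adjusted p that rounds to 0.05 but was not below it.

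Early response genes of the receptor were mostly not called. Of 14 receptor signal reporters 3 were higher and 1 lower (median 0.11), where 17.6% and 16.5% of all genes were. Nfatc1, a calcium-driven factor, was at 11.01, 11.24 and 11.23 against 10.36 and 10.09 (0.94, SE 0.17, adjusted p = 0.000621), and Tnfrsf9, the costimulatory receptor 4-1BB, at 9.52, 9.86 and 9.75 against 8.01 and 8.04 (1.68, SE 0.26). Tnfrsf9 was higher still in unstimulated cells, at 10.84 and 10.11. Egr2, an early response factor, rose by 1.43 (SE 0.45, adjusted p = 0.0249), but the call was lost without continuous array 1 (1.20, adjusted p = 0.0856), continuous array 2 (1.31, adjusted p = 0.069), transient array 1 (1.66, adjusted p = 0.0526) or transient array 2 (1.19, adjusted p = 0.158). Tnfrsf4, the costimulatory receptor OX40, fell by 1.06 (adjusted p = 0.0135), which was lost without continuous array 3 (-0.78, adjusted p = 0.0517) or transient array 1 (-0.98, adjusted p = 0.0881). Nr4a1, an orphan nuclear receptor induced by receptor signals, was at 9.76, 9.93 and 8.23 against 9.20 and 8.65 (0.38, adjusted p = 0.608). Egr1 likewise overlapped (0.51, adjusted p = 0.404), and Egr3 and Nr4a3 had changes of -0.21 (adjusted p = 0.254) and -0.08 (adjusted p = 0.752). Nr4a1, Egr1 and Egr2 were each lower on continuous array 3 than on the other continuous arrays, Egr1 at 11.58 against 12.83 and 12.75. With the B cell covariate 2 of the 14 reporters were higher and none lower, and Egr2 (1.32, adjusted p = 0.284) and Tnfrsf4 (-1.25, adjusted p = 0.124) were not called.

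Genes of the receptor complex and its proximal kinases were low in the transient arrays more than high in the continuous ones. Of 17 measured 9 were higher and 3 lower (median 0.60), and without transient array 1 none was lower. Zap70, the kinase that binds the activated receptor, was at 10.73, 11.20 and 11.16 on the continuous arrays, 8.55 and 8.25 on the transient arrays, and 10.29 and 10.38 on the unstimulated arrays (6.20-fold, 2.63, SE 0.23, adjusted p = 3.41e-06). The adaptor Lat was at 12.22, 12.37 and 12.37, then 11.12 and 11.16, then 12.41 and 12.31 in the same order (1.18, SE 0.12). The adaptor Lcp2, SLP-76, rose by 1.28 (SE 0.18) with 1 of its other probe sets at -0.05 (adjusted p = 0.844). Trat1, an adaptor that stabilises the receptor, fell by 2.13 (adjusted p = 0.0122), and without transient array 1 by 1.50 (adjusted p = 0.153). Against unstimulated cells the median of the list was -0.07 for continuous and -0.91 for transient cells, and 10 of 17 genes were lower in transient cells, where 13.1% of all genes were. Under the B cell covariate 5 of the 17 were higher and none lower, with Trat1 at -1.74 (adjusted p = 0.276).

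Feedback genes of receptor signalling were higher in 6 of 18 cases and lower in 1 (median -0.04), with 3 higher without either of the 2 transient arrays. Sla2, an adaptor that dampens receptor signalling, rose by 1.52 (SE 0.24). Rgs16, a regulator of G protein signals, was at 10.92, 9.13 and 7.81 against 7.34 and 6.50 (2.37, SE 0.76, adjusted p = 0.0261). Its call was lost without continuous array 1 (1.55, adjusted p = 0.0927), transient array 1 (2.79, adjusted p = 0.052) or transient array 2 (1.95, adjusted p = 0.167). Spry1, a Sprouty inhibitor of growth factor signalling, rose by 1.55 (adjusted p = 0.02), with the call lost without continuous array 1 (1.24, adjusted p = 0.0764), transient array 1 (1.58, adjusted p = 0.0805) or transient array 2 (1.52, adjusted p = 0.0876). The B cell covariate left none of the 18 called in either direction, with Sla2 at 0.74 (adjusted p = 0.129), Rgs16 at 3.18 (adjusted p = 0.113) and Spry1 at 2.31 (adjusted p = 0.0599).

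Quiescence and lymph node homing genes were divided. Of 22 measured 7 were lower and 3 higher with continuous antigen (median -0.65), and without transient array 2 the lower count was 3. Ccr7, the receptor that brings T cells into lymph nodes, was at 8.86, 8.65 and 8.67 on the continuous arrays, 10.53 and 10.44 on the transient arrays, and 10.93 and 11.25 on the unstimulated arrays (-1.75, SE 0.33, adjusted p = 0.000916). Foxp1 and Foxo3, forkhead factors of resting T cells, fell by 1.87 (SE 0.34) and 1.60 (SE 0.24). Il7r, the interleukin 7 receptor chain, was at 9.18, 9.65 and 6.01 against 10.78 and 11.19, with continuous array 3 far below the others (-2.71, adjusted p = 0.0148). Its call was lost without transient array 1 (-2.91, adjusted p = 0.052) or transient array 2 (-2.50, adjusted p = 0.0877).

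Klf2, a factor of quiescence, and its target S1pr1, the receptor for exit from lymph nodes, went the other way. Klf2 was at 11.72, 11.59 and 11.88 on the continuous arrays, 9.90 and 10.41 on the transient arrays, and 11.86 and 12.13 on the unstimulated arrays (1.58, SE 0.20, adjusted p = 5.8e-05). S1pr1 was at 9.73, 9.54 and 9.61, then 7.63 and 8.62, then 10.59 and 10.69 (1.50, SE 0.26). In both genes the transient arrays were the lowest. Adding the B cell covariate left 1 of the 22 genes higher and 1 lower, and Ccr7 (-1.48, adjusted p = 0.0928), Foxp1 (-1.17, adjusted p = 0.16), Il7r (-2.14, adjusted p = 0.309) and S1pr1 (1.04, adjusted p = 0.115) were not called. Bcl2, a survival gene, was at 7.40, 7.05 and 6.51 against 8.18 and 8.36 and fell by 1.28 (SE 0.26, adjusted p = 0.00172). Bid, a death-promoting relative, rose by 1.24 (SE 0.18), and of 19 BCL2 family and death genes 4 were higher and 5 lower (2 and 3 with the B cell covariate, where Bcl2 was at -1.24, adjusted p = 0.0832).

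Cytokine receptors were higher in 7 of 25 cases and lower in 5, and the higher count was 2 without transient array 1, the lower count 3 without transient array 2. Il18rap and Il18r1, the chains of the interleukin 18 receptor, rose by 2.50 (SE 0.38) and 1.86 (SE 0.46), with Il18r1 at 11.43, 11.42 and 11.50 against 9.21 and 9.96. Il10ra, which binds interleukin 10, rose by 1.60 (SE 0.41). Without transient array 1 the calls of Il18r1 (1.49, adjusted p = 0.0786) and Il10ra (1.33, adjusted p = 0.0832) were lost. Il2ra, the alpha subunit (CD25) that gives the receptor for interleukin 2 its high affinity, was at 7.26, 7.41 and 6.09 against 7.21 and 8.70, with overlap (-1.03, adjusted p = 0.0866), and both groups were above the unstimulated 4.93 and 5.17. In the B cell covariate fit 1 of the 25 was higher and 1 lower, and Il18r1 (0.91, adjusted p = 0.434) and Il10ra (1.55, adjusted p = 0.165) were not called.

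Among 23 chemokine receptors and adhesion genes 6 were higher and 3 lower. Cxcr6, a receptor of tissue-homing effector cells, was at 8.15, 8.23 and 7.35 against 6.50 and 6.27 (1.53, SE 0.38, adjusted p = 0.00614). Cxcr3, the receptor for interferon-induced chemokines, was high in both groups, at 12.24, 13.07 and 12.98 with continuous and 12.71 and 12.99 with transient antigen, and at 7.79 and 8.02 in unstimulated cells (change -0.09, adjusted p = 0.851). Ccr6 fell by 2.42 (adjusted p = 0.00399), from 9.21 and 6.48 to between 5.36 and 5.52, and without transient array 1 the change was -1.05 (adjusted p = 0.0552). Cd44, an adhesion molecule of antigen-experienced cells, was at 10.97, 10.53 and 10.13 against 12.09 and 12.20, and fell by 1.60 (adjusted p = 0.0162) on the probe set used, while another of its probe sets was at 0.42 (adjusted p = 0.355). That call was lost without continuous array 3 (-1.39, adjusted p = 0.0573), transient array 1 (-1.66, adjusted p = 0.0653) or transient array 2 (-1.54, adjusted p = 0.0805). Without transient array 1 the list had 1 lower member, and with the B cell covariate 4 were higher and 1 lower, with Ccr6 at -1.75 (adjusted p = 0.234) and Cd44 at 0.02 (adjusted p = 0.99).

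Calcium-binding proteins of the S100 and annexin families, with galectins, were higher in 10 of 17 cases and lower in 1, with a median of 1.61. Anxa2, a membrane-binding annexin, was at 12.91, 12.81 and 12.97 against 9.27 and 10.90 (7.02-fold, 2.81, SE 0.50, adjusted p = 0.000692), and at 8.10 and 7.20 in unstimulated cells. Anxa5, which binds phosphatidylserine, was at 12.69, 12.30 and 11.84 against 9.42 and 10.09 (2.52, SE 0.22), but its unstimulated arrays, at 11.58 and 11.56, were above the transient ones. Anxa6 rose by 2.69 (SE 0.30) with the same order of groups. Probe sets disagreed in part, with values of -0.18 and -0.23 for 2 others of Anxa2 and -0.25 for another of Anxa6, none of them called. S100a6 was at 12.00, 11.37 and 11.40 against 9.11 and 10.19 (1.94, adjusted p = 0.0216), and its call was lost without continuous array 1 (1.74, adjusted p = 0.0684) or transient array 1 (1.40, adjusted p = 0.198). In the B cell covariate fit 9 of the 17 were higher and 1 lower, and S100a6 was not called (2.85, adjusted p = 0.0676).

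Glycolytic genes were higher in 10 of 17 cases and lower in 5 (median 0.92). Pkm, pyruvate kinase, was at 11.82, 11.25 and 12.37 on the continuous arrays, 8.39 and 8.46 on the transient arrays, and 10.32 and 10.49 on the unstimulated arrays (10.5-fold, 3.39, SE 0.30, adjusted p = 3.53e-06). Ldha, lactate dehydrogenase, was at 13.12, 13.06 and 13.24 against 11.27 and 11.39 (1.81, SE 0.11, adjusted p = 3.18e-07). In both genes the transient arrays were also below the unstimulated ones. Pdk1, a kinase that inhibits pyruvate dehydrogenase, fell by 2.07 (SE 0.28), and Slc2a1, the glucose transporter GLUT1, was at 8.42, 8.42 and 8.19 against 10.17 and 10.12 (-1.80, SE 0.15) on the probe set used. Another probe set of Slc2a1 was called in the opposite direction (0.91, adjusted p = 0.000184). Adding the B cell covariate left 7 glycolytic genes higher and 3 lower.

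Other supply pathways changed in part. Cyp51, an enzyme of cholesterol synthesis, was at 9.67, 9.58 and 9.09 against 6.36 and 6.94 (2.80, SE 0.26, adjusted p = 4.14e-06), and Abca1, which exports cholesterol, fell by 2.31 (SE 0.41). Of 23 sterol and fatty acid genes 10 were higher and 3 lower, 1 of the latter being Scd1, described with the B cell genes. Odc1, which makes polyamines, was at 11.81, 11.95 and 11.45 against 9.65 and 9.26 (2.28, SE 0.18), while Asns, the asparagine synthetase, was higher by 1.53 (SE 0.43, adjusted p = 0.0128), a call lost without transient array 2 (1.31, adjusted p = 0.0987). Of 23 amino acid and one-carbon genes 8 were higher and 2 lower. Nop58, a nucleolar protein that guides RNA methylation, rose by 2.13 (SE 0.30), and of 29 ribosome biogenesis genes 12 were higher and 4 lower, the lower count falling to 1 without transient array 1 and 2 without transient array 2 or continuous array 3. Of 18 cytosolic ribosomal protein genes none was higher and 3 lower (5 without continuous array 2), where 17.6% and 16.5% of all genes were. Among the lower ones was Rpl37, at 10.49, 10.43 and 10.35 against 12.14 and 12.08 (-1.68, SE 0.18). Ribosomal protein genes have many near-identical pseudogenes, so that their probe sets can read more than one copy. The B cell covariate left 2 sterol genes higher and 2 lower, 2 amino acid genes higher and 1 lower, 3 ribosome biogenesis genes higher and 3 lower, and 1 ribosomal protein gene lower. Abca1 (-1.67, adjusted p = 0.111) and Asns (2.14, adjusted p = 0.0577) were not called there.

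Protein quality control and respiration genes were mostly higher. Of 26 proteasome genes 14 were higher and 1 lower (median 0.47), of 31 respiratory chain genes 17 and 2 (median 0.44), and of 23 unfolded protein response genes 12 and 1 (median 0.64). Psma3, a proteasome core subunit, was at 13.25, 13.32 and 13.15 on the continuous arrays, 11.31 and 11.35 on the transient arrays, and 13.14 and 12.94 on the unstimulated arrays (1.91, SE 0.12, adjusted p = 4.1e-07). Psmb5, a catalytic subunit, was at 12.58, 12.31 and 12.50, then 10.59 and 10.54, then 11.99 and 11.88 (1.90, SE 0.17). Ndufa9, of respiratory complex I, rose by 1.76 (SE 0.22), and Calr, the chaperone calreticulin, by 1.57 (SE 0.13). Against unstimulated cells the proteasome list had 10 genes higher and none lower in continuous cells, where 9.92% and 10.8% of all genes were, and 6 higher and 10 lower in transient cells, where 9.66% and 13.1% were. With the B cell covariate 9 proteasome, 9 respiratory chain and 7 unfolded protein response genes were higher, against 1, 0 and 0 lower.

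A small set of genes was far lower on the transient arrays than in both other CD4 groups. In 10 genes both transient arrays were over 4-fold below every continuous and unstimulated CD4 array: Psmb7, Anapc11, Psmc5, Shoc2, Plekhj1, Oard1, Cwc15, Nfx1, Lgals9 and Nfya. They were chosen from these values, which are a description. Psmb7, another catalytic proteasome subunit and 1 of the largest rises of all, was at 12.34, 11.89 and 12.19 on the continuous arrays, 7.01 and 7.37 on the transient arrays, and 11.19 and 11.12 on the unstimulated arrays (31.0-fold, 4.95, SE 0.19, adjusted p = 7.04e-09). Psmc5, an ATPase of the proteasome cap, was at 10.75, 10.64 and 10.61 against 7.09 and 7.34, with unstimulated arrays at 10.76 and 10.27. Anapc11, the ring subunit of the anaphase-promoting complex, was at 10.77, 10.17 and 10.75 against 6.41 and 7.51. Under the B cell covariate the change of Psmb7 was 4.60 (adjusted p = 1.7e-05), and under the beta-actin covariate 3.43 (adjusted p = 0.108). In 72 genes the continuous arrays were over 4-fold above all other CD4 arrays, in 7 below them, and in 21 the transient arrays were above all others.

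**Figure D4:**
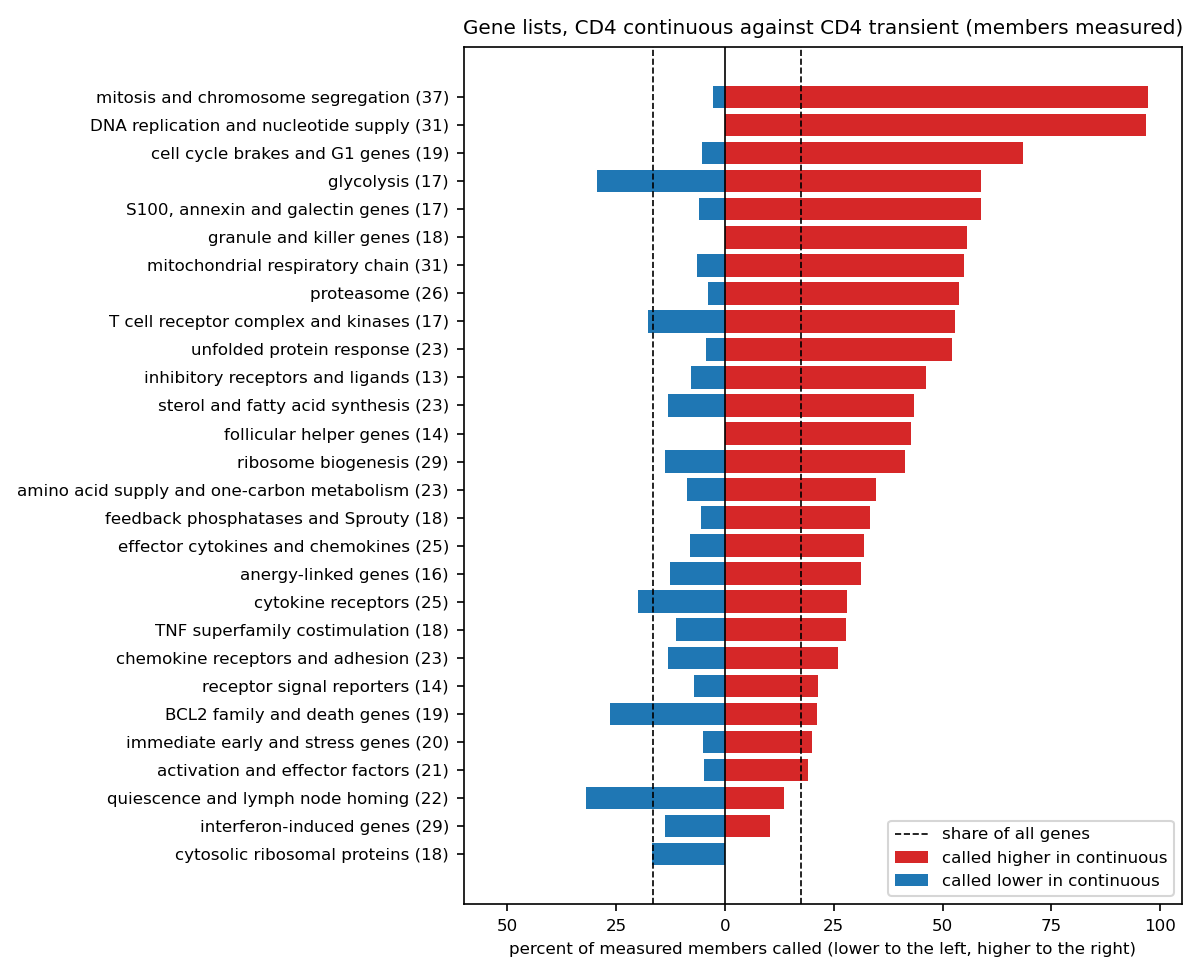
Percent of the measured members of each functional gene list called higher or lower in continuous than in transient CD4 cells, with dashed lines at the 17.6% and 16.5% of all genes called in each direction. Mitosis (36 of 37 higher) and replication (30 of 31) exceed all other functional lists in the share called higher. Marker lists, such as the B cell markers, are not drawn.

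Interferon-induced genes were called in both directions. Of 29 measured 3 were higher and 4 lower (median -0.28), where 17.6% and 16.5% of all genes were. The lower count ranged between 0 without transient array 1, 2 without continuous array 3, 7 without transient array 2 and 8 without continuous array 2. Gbp3, a guanylate-binding protein, rose by 1.96 (SE 0.38, adjusted p = 0.00121). Oasl2, an antiviral protein, fell by 2.43 (SE 0.67, adjusted p = 0.0116), and without transient array 1 by 2.24 (adjusted p = 0.0796). Of 18 TNF superfamily costimulators 5 were higher and 2 lower, with 3 higher without continuous array 1 or transient array 2, and Tnfsf4, the ligand of OX40, fell by 0.95 (SE 0.13). Of 20 immediate early and stress genes 4 were higher and 1 lower, against the same shares of all genes. With the B cell covariate none of the interferon genes was called in either direction, Gbp3 being at 1.19 (adjusted p = 0.204) and Oasl2 at -1.26 (adjusted p = 0.472). That fit left 3 of the costimulators higher and 1 lower, and 2 of the immediate early genes higher and none lower.

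A few large changes lay outside the lists. Tgfb3, a form of transforming growth factor beta, was at 8.52, 7.87 and 8.53 on the continuous arrays, 4.60 and 4.59 on the transient arrays, and 3.97 and 4.27 on the unstimulated arrays (3.71, SE 0.21, adjusted p = 1.46e-07). Dsp, the desmosome protein desmoplakin, rose by 4.26 (SE 0.72), a call lost under the B cell covariate (3.45, adjusted p = 0.0722). Tdrp, Afp, the gene of alpha-fetoprotein, and Adh1, an alcohol dehydrogenase, fell by 4.39 (SE 0.56), 4.32 (SE 0.45) and 4.27 (SE 0.31). Adh1 was at 7.10, 7.48 and 7.18 in continuous cells against 11.55 and 11.49 in transient and 10.69 and 10.78 in unstimulated cells. In these last 3 genes the continuous arrays were the ones that stood apart.

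The same comparison in CD8 cells, on 3 continuous and 3 transient arrays of OT1 receptor transgenic cells, used other arrays and showed 3376 called genes (27.2%), 1686 higher (13.6%) and 1690 lower (13.6%). On these arrays the beta-actin difference was 0.31 to 0.56 with continuous and 0.66 to 1.02 with transient antigen, and none of the 20 B cell markers was called. Lineage, receptor and antigen differ together between the cell types and cannot be told apart. The CD4 transient arrays, with beta-actin differences of 2.73 and 2.42 and high B cell markers, also differ from the CD8 transient arrays in these measures. Their part in the differences between cell types was not tested beyond the covariate fits. Of the genes higher in CD4 cells 926 were higher in CD8 cells too, 42.4% of the CD4 and 54.9% of the CD8 list, and 168 were lower there. Of the genes lower in CD4 cells 694 were lower in CD8 cells, 34% of the CD4 and 41.1% of the CD8 list, and 99 were higher there. The CD8 minus CD4 difference of the change was itself called in 2340 genes (18.9%), among them 1002 of the 2182 genes higher in CD4 cells (45.9%) and 677 of the 2042 lower ones (33.2%). With the B cell covariate this difference was called in 740 genes, and with the beta-actin covariate in 4. The differences given below are from the fit without covariates.

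The division genes were mostly higher with continuous antigen in both cell types. In CD8 cells 35 of 37 mitosis genes were higher (median 2.35) and 31 of 31 replication genes (median 2.04). The difference between the cell types was called for 1 mitosis gene, Cdc25b, which had a change of 0.41 (adjusted p = 0.466) in CD8 cells (difference -3.41, adjusted p = 0.000788). For 7 of the 31 replication genes it was called, 5 with a larger rise in CD8 and 2 with a larger rise in CD4 cells, directions that hold 8.13% and 10.7% of all genes. Gzmb (4.13), Gzmk (4.88) and Ifng (4.52) rose in CD8 cells by amounts whose difference from CD4 cells was -1.58 (adjusted p = 0.348), 0.10 (adjusted p = 0.952) and 0.26 (adjusted p = 0.895). A p above the threshold does not show that the changes were equal.

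Other effector genes rose in CD4 cells by more. Il21 was at 3.42 to 3.86 on the continuous and 3.40 to 3.64 on the transient CD8 arrays, signals that may be background. Its change in CD8 cells was 0.13 (adjusted p = 0.797), and the difference was -6.13 (adjusted p = 3.73e-06). Nkg7, at 0.02 in CD8 cells, differed by -3.23 (adjusted p = 2.75e-06), Tbx21, at 0.21, by -2.68 (adjusted p = 0.00354), and Il10, at 0.42, by -2.65 (adjusted p = 0.00263). Icos and Sh2d1a differed by -1.71 (adjusted p = 0.00858) and -1.79 (adjusted p = 0.000151). Ccl5, Cxcr6 and S1pr1, higher in continuous CD4 cells, were lower in continuous CD8 cells (-1.19, -1.38 and -1.42), with differences of -3.41, -2.91 and -2.92.

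Genes low on the CD4 transient arrays were among those with the largest differences. Psmb7 changed by 0.89 in CD8 cells (difference -4.06) and Zap70 by 0.14 (-2.50). Cd4, at signals of 6.17 to 6.80 on the CD8 arrays, had a change of -0.40 there and a difference of -2.28. Of the 17 receptor complex genes none was higher and 6 lower in CD8 cells, and the difference was called in 10 of 17, all toward a larger change in CD4 cells, where 10.7% of all genes were. Of the 17 S100, annexin and galectin genes 1 was higher and 2 lower in CD8 cells, and the difference was called in 7. Klf2 fell by 0.65 in CD8 cells (difference -2.23), where 17 of 22 quiescence genes were lower and none higher.

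Of the 14 reporters 9 were higher and 2 lower in CD8 cells (median 0.89), and the difference was called in 4, all toward CD8 cells. Nr4a1 rose by 2.74 in CD8 cells (difference 2.36, adjusted p = 0.0283), Tnfrsf9 by 3.47 (difference 1.79) and Tnfrsf4 by 1.09 (difference 2.16). Fasl rose by 3.64 in CD8 cells (difference 4.05, adjusted p = 0.00249), Il2ra by 2.20 (difference 3.23) and Cd83, an activation antigen, by 2.42 (difference 4.27). In CD4 cells Cd83 had a change of -1.86, with transient arrays at 9.55 and 7.74, and of 0.69 under the B cell covariate. Of the 29 ribosome biogenesis genes 23 were higher in CD8 cells and none lower, and the difference was called for 9 toward CD8 and 1 toward CD4 cells.

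**Figure D5:**
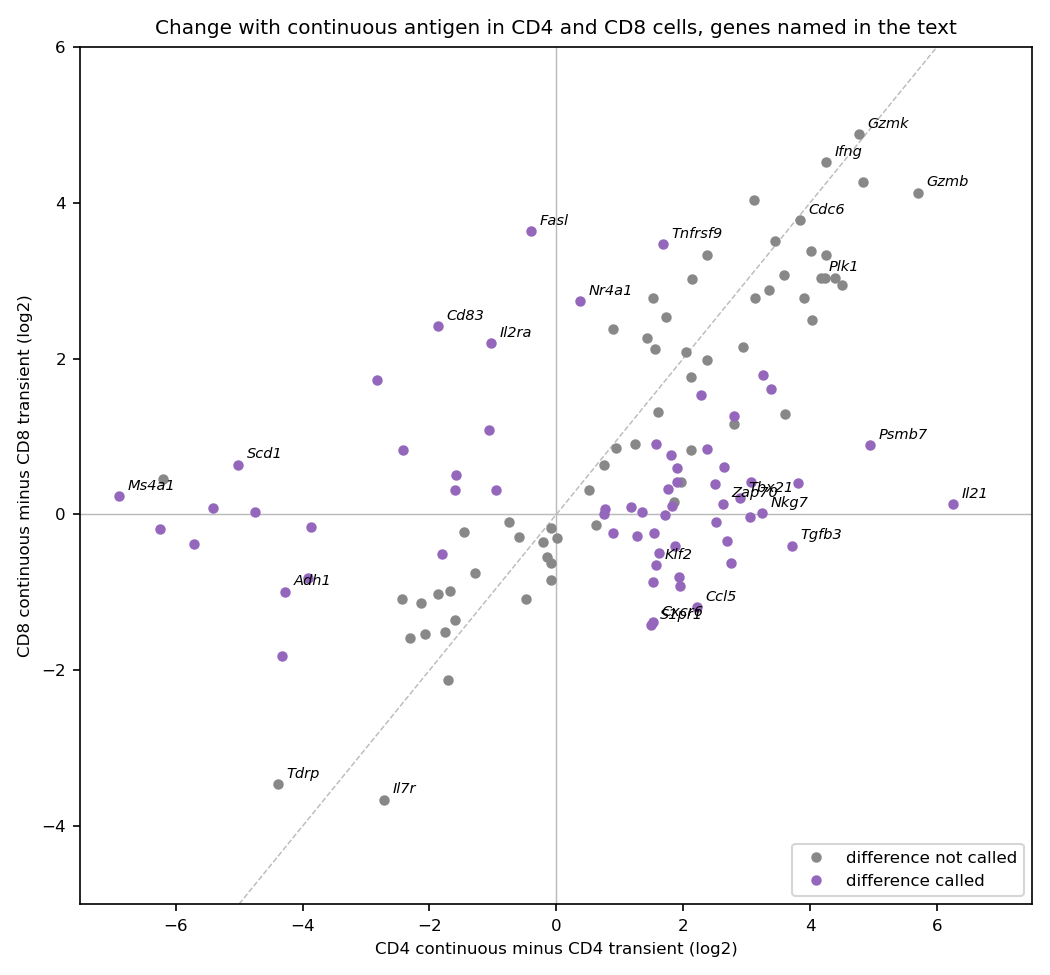
Continuous minus transient change (log2) in CD4 cells on the horizontal and in CD8 cells on the vertical axis for the genes named in the text, with purple points where the CD8 minus CD4 difference was called and a dashed diagonal where both changes are equal. Il21 lies far right at 6.26 with a CD8 change of 0.13, while Gzmb and Gzmk lie high on both axes.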

How the data were processed

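RNA of sorted T cells was hybridised to 28 Affymetrix Mouse 430A2 arrays. The deposited values are log2 signals per probe set, made by the authors with RMA, per the submitters' processing notes, in a version not given in the sources used here. RMA is made to even out the distributions of arrays, so that a shift of most genes at once can be hidden. The deposited values were not even over all 28 arrays. On the unstimulated day 2 arrays of replicate 3 the medians were 4.83 (CD4) and 4.97 (CD8), against 6.33 to 6.41 on the day 5 arrays. Those day 2 arrays entered the choice of probe set and the fit to all 28 arrays. Control probe sets (64), those with several symbols (691) and with none (1555) were left out. Each gene was read from its brightest probe set, by the mean of the 28 arrays. Cd69 was not used, and genes whose probe sets disagreed were mostly passed over.

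limma 3.58.1 in R 4.3.3 fitted 1 mean per group to the 16 day 5 arrays (10 residual degrees of freedom), with two-sided moderated tests and Benjamini-Hochberg adjustment over 12393 genes. Covariate fits added the beta-actin 3' minus 5' difference or the mean of the B cell markers. The text names, among called genes, the 15 largest rises and falls without overlap, up to 5 members of each list, fixed genes and markers, and the 10 largest differences between cell types either way, and of those a choice by function. Members and lists were chosen with earlier results of these data known. A simulation drew independent noise with 1 spread per gene, equal in all groups, and changed 200 of the 12393 genes. There the fit called 81% of changes of 1 log2 unit and 100% of changes of 3, with 8 false calls. It held no shift shared by whole arrays, so it gives no error rate for the real comparison. Alternatives were other probe set rules, filters, normalizations, fits, thresholds, covariates, a replicate block and each array left out. Promoters came from RefSeq tables matched by symbol (9887 genes). P-values measure the spread between these arrays.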

Additional observations from a re-analysis of the deposited data

Results flagged for a closer look

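The difference between the cell types was tested for every gene as a contrast within the limma fit, and 2340 genes passed, 64 of them among the 127 genes named in the text. The values below are CD8 minus CD4 differences of the continuous minus transient change in log2 units, so that a negative value means a larger rise, or a smaller fall, in CD4 cells. No group of 4 or more arrays was part of the comparison, so single arrays could not be tested as outliers.

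Among effector, killer and follicular helper genes the changes were larger in CD4 cells for Il21 (-6.13), Ccl5 (-3.41), Nkg7 (-3.23), Ctsw (-2.87), Tbx21 (-2.68), Il10 (-2.65), Batf (-1.32), Maf (-0.70), Icos (-1.71) and Sh2d1a (-1.79). Receptors on this side were Cxcr6 (-2.91), Il18rap (-2.11), Cd160 (-1.72) and S1pr1 (-2.92). Growth and cell cycle genes were Cdc25b (-3.41), Rbl2 (-2.12), Cdkn1a (-2.03), Cdkn2c (-1.53) and Dut (-1.47). Tgfb3 (-4.11), Baiap3 (-3.37) and Arpc4 (-3.09), a subunit of the actin-nucleating Arp2/3 complex, were among the largest differences in this direction.

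The receptor complex and its regulators followed, with Zap70 (-2.50), Sla2 (-2.38), Cd4 (-2.28), Lcp2 (-1.55), Ptpn22 (-1.14), Lat (-1.09) and Cd3e (-0.76), and the quiescence factor Klf2 (-2.23). Calcium-binding proteins were Anxa6 (-3.03), S100a6 (-2.74) and Anxa5 (-2.62). Metabolic and protein turnover genes were Psmb7 (-4.06), Pkm (-1.78), Cyp51 (-1.52), Psma3 (-1.48), Ndufa9 (-1.43), Psmb5 (-1.30), Ldha (-1.04), Odc1 (-0.74) and Calr (-0.66).

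In the other direction, the difference favoured CD8 cells for the receptor-induced genes and costimulators Fasl (4.05), Cd83 (4.27), Il2ra (3.23), Nr4a1 (2.36), Tnfrsf4 (2.16), Tnfrsf9 (1.79) and Tnfsf4 (1.26), and for Pkig (4.54), Ccr6 (3.25), Il2 (2.09), Cd44 (1.91) and Slc2a1 (1.29). Falls in CD4 cells are part of several of these differences. Under the B cell covariate the CD4 changes of Cd83 (0.69), Pkig (-0.09) and Ccr6 (-1.75) were not called. Without the covariate they were -1.86, -2.82 and -2.42. The CD4 falls of Slc2a1 (-1.91) and Tnfsf4 (-0.80) stayed called under it. For Afp (2.51) and Adh1 (3.27) the fall was larger in CD4 than in CD8 cells. B cell and related genes were high on the CD4 transient arrays and had positive differences, with Ms4a1 (7.13), Ly6d (6.06), Scd1 (5.65), Ly86 (5.49), Cd79b (5.33), Fcrla (4.78), Ighg3 (3.70) and Slpi (3.09).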

How the results depend on the processing

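Counts of genes called in the CD4 comparison (4224, with 2182 higher and 2042 lower) depended on these choices. With every probe set tested, 6810 were called (3715 higher, 3095 lower), with all 28 arrays in one fit 618 (380 and 238), with the beta-actin covariate 2 (2 and 0), with the B cell covariate 1847 (968 and 879), and at a change of at least 2-fold 1855 (1081 and 774). An adjusted p below 0.01 left 1259 lower genes. Counting only genes with several probe sets that were all called the same way, a choice made after seeing the data, gave 474 of 4956 (299 and 175), and 360 such genes had probe sets called in opposite directions. Leaving out 1 array gave 3204 to 3867 genes (1725 to 2082 higher, 1479 to 1842 lower), fewest without transient array 1. The CD8 count of 3376 became 5401 with every probe set, 360 with all 28 arrays, 2248 with beta-actin, 2150 at an adjusted p below 0.01, 1088 at 2-fold and 5135 with array weights, and 2391 to 3631 without 1 array. The 2340 differences between cell types became 3585 with every probe set, 22 with all 28 arrays, 4 with beta-actin, 740 with the B cell covariate, 1167 at an adjusted p below 0.01 and 1331 at 2-fold, and 1574 to 2323 without 1 array. The cause of these changes was not tested, except that the thresholds only remove genes.

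Of the genes named that were called, the sign turned with the beta-actin covariate for Il2 (0.42), Gzma (-7.27), Socs3 (1.23), Trat1 (1.44), Il7r (0.99) and S1pr1 (-0.85). With the B cell covariate it turned for Ly86 (0.62), which is itself part of that covariate, Cd44 (0.02) and Igha (1.90). None of these was called there. Other probe sets gave the opposite sign for Smc4 (0.90), Tnfrsf9 (-0.05), Lcp2 (-0.05), Cd44 (0.42), Anxa2 (-0.18 and -0.23), Anxa6 (-0.25), Slc2a1 (0.91) and Fasl (0.74).

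Arrays sharing a replicate number deviated apart (r = -0.27 and -0.20), and the labels do not say what the number means. The 2 transient arrays deviate from their mean by opposite amounts, so these values cannot show whether arrays are paired. A replicate block gave 4141 genes, with 2129 higher and 2012 lower. Averaged probe sets, a filter on the lowest 30% of genes, trend and robust moderation, only the groups compared, another quantile normalization and median centring kept the CD4 count within 1.5 times. With 2 transient arrays, the number of arrays limits the precision.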
